A study of Homo sapiens with 9 samples.

Results

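The transcription factors that set the identity of the foregut and intestine were read in RNA-seq libraries of cells labelled NCI-H69. The 8 genes CDX2, HNF4A, FOXA1, FOXA2, GATA6, SOX2, SOX9 and ELF3 were taken by symbol from a table of 17529 genes, and all 8 had a row and passed the filter on low counts. The cells had received an siRNA against CSNK2B, which encodes the regulatory subunit of protein kinase CK2 (si_CSNK2B), an siRNA against P300, a histone acetylating coactivator whose gene is EP300 (si_P300), or a negative control siRNA (NC). Each group held 3 biological replicates of the same line, whose label is that of a small cell lung cancer line, with RNA taken 48 hours after transfection. The siRNA sequences are not given in the sources used here.

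Endoderm forms the lining of the gut and of its outgrowths, such as the lung, liver and pancreas. FOXA and GATA proteins open chromatin at its genes, HNF4A then drives hepatic and intestinal epithelial programmes, and SOX2 and CDX2 mark opposite ends of the gut tube, SOX2 the foregut and CDX2 the intestine. SOX9 marks progenitor and crypt cells, and ELF3 is an epithelium-specific factor of the ETS family.

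Total counts were 13.1 to 18.3 M per library. CSNK2B had 334, 309 and 296 TPM (transcripts scaled to a common total, so per length) in si_CSNK2B replicates 1 to 3, and 383, 343 and 363 TPM in NC, a log2 fold change of -0.26 ± 0.10 (SE) that did not pass (edgeR quasi-likelihood test, adjusted p = 0.0732). EP300 had 8.76, 6.68 and 7.87 TPM in si_P300, and 8.38, 10.6 and 8.50 TPM in NC, a log2 fold change of -0.30 ± 0.13 that did not pass (edgeR adjusted p = 0.101). CSNK2B also stood at -0.22 ± 0.10 in si_P300 and EP300 at -0.27 ± 0.13 in si_CSNK2B, so the targeted transcripts did not tell the labelled knockdowns apart, and each group below means the libraries so labelled. CSNK2B passed in DESeq2 (adjusted p = 0.0444) and without si_CSNK2B replicate 1 (edgeR adjusted p = 0.0347), within 0.0347 to 0.273 over 19 alternatives. In the NC libraries, 7 of the 8 small cell lung cancer markers with a row, among them CHGA, SYP and NCAM1, were under 1 TPM on average. The 8 summed to 2.65 to 3.53 TPM in si_CSNK2B, 3.57 to 6.13 TPM in si_P300 and 4.28 to 5.59 TPM in NC. The remaining marker, POU2F3, averaged 3.95 TPM in NC, which is most of that sum. POU2F3 was lower in si_CSNK2B (log2 fold change -0.95 ± 0.27, edgeR adjusted p = 0.0167), a call that held in 15 of 19 alternatives. In si_P300 it stood at -0.22 ± 0.26 and did not pass (edgeR adjusted p = 0.55). Of 10 intestinal epithelium markers 5 reached 10 TPM or more in NC (CDX2, CDH17, VIL1, LGALS4 and CEACAM5). So did 1 of 8 hepatocyte markers (APOA2), 2 of 8 stomach epithelium markers (TFF1 and PGC) and none of the 6 lung epithelium markers with a row. Of the 7 fibroblast and leukocyte markers with a row, 1 did (PDGFRA, 11.3 TPM on average). The markers of neuroendocrine small cell lung cancer thus do not bear out the labelled cell type, and the line is called by its label here.

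All 8 factors were expressed in the cells, at levels that spanned a wide range per length of transcript. In NC libraries ELF3 averaged 287 ± 22.9 TPM and SOX9 198 ± 13 TPM (SD, n = 3), above 97.0% and 95.6% of the genes in the table. The other 6 lay much closer together, with GATA6 at 38.8 ± 2.14, HNF4A at 35.3 ± 0.558, CDX2 at 35.2 ± 3.28, FOXA2 at 23.1 ± 1.33, SOX2 at 23.0 ± 1.28 and FOXA1 at 16.7 ± 0.928 TPM. In that order the libraries of HNF4A and CDX2 overlapped, as did those of FOXA2 and SOX2, and every other pair of neighbours stood apart. FOXA1, above 61.8% of genes, was the lowest of the 8.

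The order of the lower 6 was different in both knockdown groups, while ELF3 and SOX9 kept the first places. In si_CSNK2B the order was GATA6 (79.3 ± 8.31 TPM), SOX2 (48.0 ± 5.71), CDX2 (40.1 ± 5.74), HNF4A (30.0 ± 0.671), FOXA1 (25.5 ± 1.74) and FOXA2 (18.2 ± 0.623), in which SOX2 and CDX2 were the one pair of neighbours that overlapped. In si_P300 it was GATA6 (68.0 ± 11.7 TPM), SOX2 (49.4 ± 15.7), CDX2 (39.4 ± 7.87), HNF4A (29.9 ± 1.40), FOXA1 (21.6 ± 1.10) and FOXA2 (20.9 ± 0.777), and there every neighbour from GATA6 to HNF4A overlapped the next, as did FOXA1 and FOXA2. SOX2 thus held the fourth place in both knockdown groups, against the seventh in NC, and FOXA2 held the last in both, against the sixth in NC. The summed TPM of the 8 factors was 665 ± 33.3 in si_CSNK2B, 686 ± 53.1 in si_P300 and 658 ± 18.0 in NC, which lay within the spread between libraries.

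**Figure D1:**
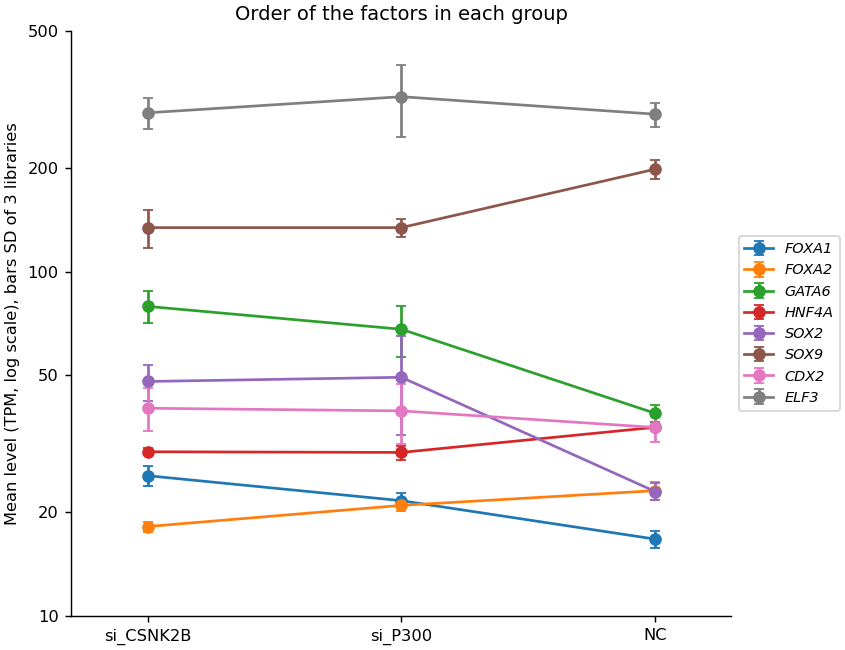
Mean level of each factor (TPM, log scale, bars are SD of 3 libraries) in si_CSNK2B, si_P300 and NC, with lines joining the same gene. SOX2 stands at 48.0 and 49.4 TPM in the knockdown groups, against 23.0 TPM in NC. The mean of FOXA1 is above that of FOXA2 in both knockdown groups and below it in NC. In si_P300 the libraries of FOXA1 and FOXA2 overlap.

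Where CSNK2B was targeted, most of these factors differed from NC. Of the 8 factors 6 passed, 3 higher (SOX2, GATA6 and FOXA1) and 3 lower (SOX9, FOXA2 and HNF4A), by the edgeR quasi-likelihood test at an adjusted p under 0.05 over all 13129 tested genes. Of all tested genes 34.0% passed, 16.2% higher and 17.8% lower, so 47.6% of the calls were higher, against 66.0% when libraries were scaled by size alone. Without NC replicate 3 the number of genes called was 2928, against 4462. The median log2 fold change of the 8 was 0.07, beside 0.04 over all genes, and their median size regardless of sign was 0.49, beside 0.32. In all 6 that passed, the libraries of si_CSNK2B and NC did not overlap, 3 of them higher and 3 lower, as was so for 53.0% of all tested genes, 26.2% higher and 26.8% lower.

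Where P300 was targeted, 5 of the 8 passed, 3 higher (SOX2, GATA6 and FOXA1) and 2 lower (SOX9 and HNF4A), where 28.3% of all tested genes passed, 13.6% higher and 14.7% lower (edgeR adjusted p under 0.05), so 48.1% of the calls were higher, against 66.0% with scaling by size alone. The factors called came to 3 without any 1 of NC replicate 1 or 3 or si_P300 replicate 2 or 3, and the genes called to 2322 and 2191 without NC replicate 1 and 3, against 3709. The median log2 fold change was 0.11, beside 0.04 over all genes, and the median size 0.32, beside 0.29. The libraries did not overlap for 6 of the 8, the 5 that passed and FOXA2, 3 higher and 3 lower, beside 46.5% of all tested genes, 22.8% higher and 23.8% lower. Both comparisons share the same NC libraries, so they are given side by side and are not separate evidence. In the direct comparison of si_CSNK2B with si_P300 none of the 8 passed, where 0.00% of all tested genes did (edgeR, 661 genes with an unadjusted p under 0.05, and 8 genes called by DESeq2, none of them among the 8 factors). The libraries of the 2 knockdown groups did not overlap for FOXA1, which was higher in si_CSNK2B, and FOXA2, which was lower there, beside 7.14% of all tested genes, 3.31% higher and 3.83% lower.

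**Figure D2:**
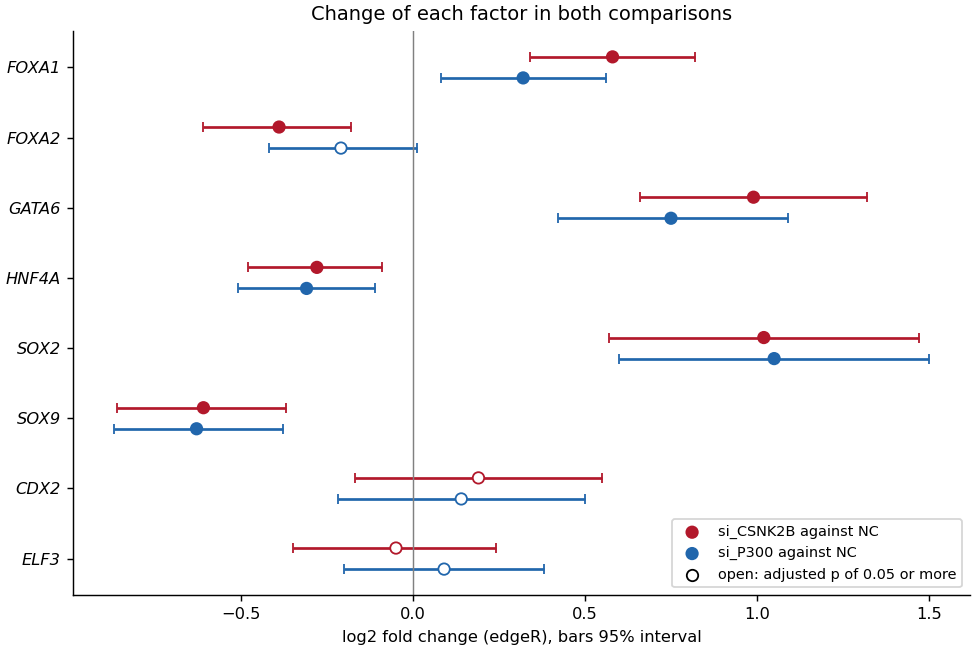
Log2 fold change of each factor (edgeR, bars are 95% intervals) in si_CSNK2B against NC (upper point of each pair) and si_P300 against NC (lower point), with open points for an adjusted p of 0.05 or more. SOX2 and GATA6 lie farthest to the right and SOX9 farthest to the left, and CDX2 and ELF3 have intervals across 0 in both.

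The promoters of the 3 factors that rose together, SOX2, GATA6 and FOXA1, are shown beside that of CDX2, which did not pass. Short motifs of the FOX, GATA, HNF4, CDX and SOX families are in capitals. No motif was searched for the ETS family, to which ELF3 belongs. The promoters come from RefSeq (GRCh38.p14), 250 bases before to 50 after the RefSeq gene start, at chr3:181711675-181711974 (plus strand) for SOX2, chr18:22169339-22169638 (plus strand) for GATA6, chr14:37595200-37595499 (minus strand) for FOXA1 and chr13:27969266-27969565 (minus strand) for CDX2, each written along its gene. By the GENCODE coordinates given below, the windows of FOXA1 and CDX2 lie wholly inside the annotated gene. That of GATA6 holds the GENCODE start (22169443), which lies ahead of the RefSeq start used.
SOX2: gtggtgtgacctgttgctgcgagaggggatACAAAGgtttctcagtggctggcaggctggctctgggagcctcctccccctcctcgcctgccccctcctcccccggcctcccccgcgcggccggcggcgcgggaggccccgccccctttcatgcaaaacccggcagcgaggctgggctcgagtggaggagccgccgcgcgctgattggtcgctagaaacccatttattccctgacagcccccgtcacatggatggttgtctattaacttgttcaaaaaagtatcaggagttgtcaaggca
GATA6: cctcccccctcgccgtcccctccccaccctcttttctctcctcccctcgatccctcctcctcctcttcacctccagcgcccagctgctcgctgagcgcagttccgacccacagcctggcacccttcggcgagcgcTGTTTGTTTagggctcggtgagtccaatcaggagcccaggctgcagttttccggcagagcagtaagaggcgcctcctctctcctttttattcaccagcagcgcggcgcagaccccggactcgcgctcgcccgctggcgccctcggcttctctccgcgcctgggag
FOXA1: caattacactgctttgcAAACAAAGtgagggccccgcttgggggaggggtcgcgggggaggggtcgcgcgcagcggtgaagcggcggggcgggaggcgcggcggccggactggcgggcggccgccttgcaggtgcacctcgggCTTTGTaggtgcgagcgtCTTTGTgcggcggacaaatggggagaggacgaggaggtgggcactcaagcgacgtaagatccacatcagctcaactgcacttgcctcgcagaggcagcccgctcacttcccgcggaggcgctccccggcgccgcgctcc
CDX2: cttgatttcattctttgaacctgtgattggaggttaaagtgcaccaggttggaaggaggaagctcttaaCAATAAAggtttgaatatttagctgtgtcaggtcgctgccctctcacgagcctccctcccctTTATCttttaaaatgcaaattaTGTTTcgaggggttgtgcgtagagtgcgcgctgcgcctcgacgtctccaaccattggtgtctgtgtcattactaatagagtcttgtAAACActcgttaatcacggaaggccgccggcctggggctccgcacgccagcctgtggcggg
The motifs were TGTTT for FOX, GATAA for GATA, CAAAGTCCA for HNF4, TTTATNG for CDX and ACAAAG for SOX proteins, searched on both strands. SOX2 held 1 SOX motif, GATA6 held 2 overlapping FOX motifs, and FOXA1 held 3 SOX motifs and 1 FOX motif that overlaps the first of them. CDX2 held 2 FOX motifs, 1 GATA motif and 1 CDX motif, and none of the 4 promoters held the HNF4 motif. Of 35116 promoters of this length, 44.4% held the FOX, 22.7% the GATA, 0.384% the HNF4, 9.73% the CDX and 16.1% the SOX motif, so single matches are common for all but HNF4. No binding was measured, and a match is a description of these letters. HNF4A has 2 starts in that table, on chromosome 20, and one count covers both.

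SOX2, a high-mobility-group factor of the foregut and of stem cells, was higher in every knockdown library than in any NC library. It had 48.7, 53.3 and 41.9 TPM in si_CSNK2B replicates 1 to 3 and 33.6, 49.3 and 65.1 TPM in si_P300, against 21.6, 23.1 and 24.2 TPM in NC. The 3 NC libraries lay close together, whereas si_P300 spread widely, with replicate 1 lowest and replicate 3 highest of the 6 knockdown libraries. SOX2 rose 2.03-fold in si_CSNK2B (log2 fold change 1.02 ± 0.21 (SE), edgeR adjusted p = 0.00291) and 2.07-fold in si_P300 (1.05 ± 0.21, edgeR adjusted p = 0.00325). Its change was larger in size than that of 91.0% of tested genes in si_CSNK2B and of 93.6% in si_P300. Between the 2 knockdown groups it differed by -0.03 on the log2 scale, with a 95% interval of -0.47 to 0.41. Leaving out si_P300 replicate 1 gave 1.28 and leaving out replicate 3 gave 0.80, and both passed (edgeR adjusted p = 4.17e-05 and 0.0138, where the 19 alternatives ran from 1.69e-05 to 0.0186).

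GATA6, a zinc finger factor of endoderm and its derivatives, was about as far from NC as SOX2 in si_CSNK2B and less far in si_P300. Its libraries read 85.2, 82.9 and 69.8 TPM in si_CSNK2B and 54.7, 76.4 and 73.0 TPM in si_P300, against 41.2, 37.6 and 37.5 TPM in NC. No knockdown library came down to the NC range, and si_P300 replicate 1 was again the lowest of the 6. GATA6 rose 1.98-fold in si_CSNK2B (log2 fold change 0.99 ± 0.15, edgeR adjusted p = 0.000552) and 1.69-fold in si_P300 (0.75 ± 0.15, edgeR adjusted p = 0.00368). The direct difference of 0.23 had a 95% interval of -0.09 to 0.56 and did not pass (edgeR adjusted p = 0.946).

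The FOXA pioneer factors moved in opposite directions. FOXA1 had 25.7, 27.2 and 23.7 TPM in si_CSNK2B and 20.4, 21.9 and 22.5 TPM in si_P300, against 17.8, 16.2 and 16.1 TPM in NC. All 3 groups stood apart from each other, with si_CSNK2B highest and NC lowest. FOXA1 rose 1.5-fold in si_CSNK2B (0.58 ± 0.11, edgeR adjusted p = 0.00192) and 1.25-fold in si_P300 (0.32 ± 0.11, edgeR adjusted p = 0.0479). The second call sat at the threshold: it held in 7 of 19 alternatives (adjusted p of 0.00889 to 0.19) and was lost without any 1 of NC replicates 1 to 3 (edgeR adjusted p = 0.0814, 0.19 and 0.147), si_CSNK2B replicate 1 or 2 (0.0535 and 0.0564) or si_P300 replicate 2 or 3 (0.105 and 0.143). FOXA2 had 18.1, 17.6 and 18.8 TPM in si_CSNK2B and 21.1, 20.1 and 21.6 TPM in si_P300, against 23.5, 24.2 and 21.6 TPM in NC. On normalised counts scaled to library size (CPM), which the test used, its groups were also ordered without overlap, at 24.9, 28.4 and 32.7 CPM on average in si_CSNK2B, si_P300 and NC. FOXA2 fell to 0.761 of NC in si_CSNK2B (-0.39 ± 0.10, edgeR adjusted p = 0.00942). In si_P300 FOXA2 stood at -0.21 on the log2 scale (95% interval -0.42 to 0.01) and missed the threshold (edgeR adjusted p = 0.136). In the direct comparison FOXA1 differed by 0.26 (95% interval 0.02 to 0.50) and FOXA2 by -0.19 (-0.40 to 0.03), neither of which passed (edgeR adjusted p = 0.946 for both).

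HNF4A, the nuclear receptor that drives enterocyte and hepatocyte genes, had 30.4, 30.3 and 29.2 TPM in si_CSNK2B and 30.7, 28.2 and 30.6 TPM in si_P300, against 35.2, 34.8 and 35.9 TPM in NC. Its replicates lay close together, with an SD of 0.671 TPM in si_CSNK2B, 1.40 TPM in si_P300 and 0.558 TPM in NC, and all 6 knockdown libraries were below all 3 NC libraries. HNF4A fell by 17.9% in si_CSNK2B (log2 fold change -0.28 ± 0.09, 95% interval -28.5% to -5.72%, edgeR adjusted p = 0.0315) and fell by 19.5% in si_P300 (-0.31 ± 0.09, -29.9% to -7.62%, edgeR adjusted p = 0.0241). Both calls were close to the threshold. In si_CSNK2B the call held in 11 of 19 alternatives (adjusted p of 0.00946 to 0.151) and failed on dropping NC replicate 1, 2 or 3 (edgeR adjusted p = 0.0929, 0.0522 and 0.123) or si_CSNK2B replicate 2 or 3 (0.0565 and 0.0917). In si_P300 it held in 12 of 19 (0.00363 to 0.106) and failed on dropping NC replicate 1 or 3 (0.0806 and 0.106) or si_P300 replicate 2 or 3 (0.0526 and 0.0508).

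SOX9, the progenitor factor, was the largest fall among the 8. It had 119, 153 and 131 TPM in si_CSNK2B and 135, 126 and 142 TPM in si_P300, against 195, 188 and 213 TPM in NC. The highest knockdown library, si_CSNK2B replicate 2, stayed below the lowest NC library. SOX9 fell by 34.5% in si_CSNK2B (log2 fold change -0.61 ± 0.11, 95% interval -44.7% to -22.4%, edgeR adjusted p = 0.00162) and fell by 35.2% in si_P300 (-0.63 ± 0.11, -45.3% to -23.2%, edgeR adjusted p = 0.0019). The direct difference was 0.02 with a 95% interval of -0.23 to 0.26.

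CDX2, the homeobox factor of the intestine, did not pass in either comparison. It had 46.5, 38.5 and 35.3 TPM in si_CSNK2B and 30.7, 46.1 and 41.4 TPM in si_P300, against 32.8, 34.0 and 39.0 TPM in NC, and the 3 groups overlapped. Its log2 fold change was 0.19 in si_CSNK2B (95% interval -0.17 to 0.55, edgeR adjusted p = 0.401) and 0.14 in si_P300 (-0.22 to 0.50, edgeR adjusted p = 0.558). These intervals allow a rise of up to 46.7% and 41.8%. ELF3 had 257, 295 and 317 TPM in si_CSNK2B and 407, 260 and 301 TPM in si_P300, against 311, 285 and 265 TPM in NC. Only si_P300 replicate 1 lay outside the range of the others by much, on the high side. Its log2 fold change was -0.05 in si_CSNK2B (95% interval -0.35 to 0.24, edgeR adjusted p = 0.78) and 0.09 in si_P300 (-0.20 to 0.38, edgeR adjusted p = 0.652), and the sign of both turned under other settings.

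**Figure D3:**
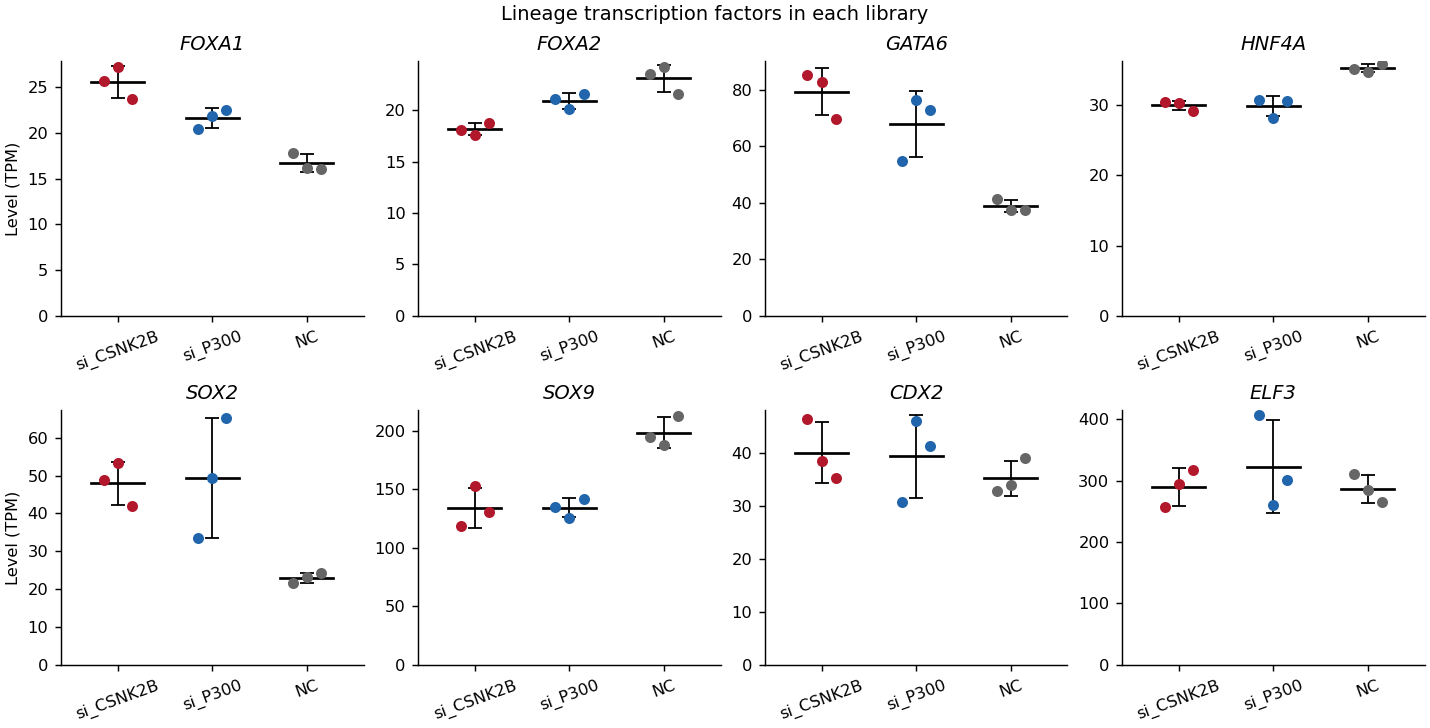
Level of each factor in every library (TPM, axes from 0), with 1 point per library, the mean as a bar and the SD of 3 libraries as whiskers, in si_CSNK2B, si_P300 and NC. The knockdown libraries of SOX2, GATA6 and FOXA1 lie above NC, those of SOX9 and HNF4A below it, and those of CDX2 and ELF3 overlap it.

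Ratios within a library, picked after the values were seen and given without a test, show the same shifts free of scaling between libraries. The TPM ratio of SOX2 to CDX2 was 1.05, 1.39 and 1.19 in si_CSNK2B and 1.09, 1.07 and 1.57 in si_P300, against 0.660, 0.680 and 0.620 in NC, so the foregut factor exceeded the intestinal one in all 6 knockdown libraries and in no NC library. The ratio of FOXA1 to FOXA2 was 1.41 ± 0.143 in si_CSNK2B and 1.03 ± 0.0633 in si_P300, against 0.723 ± 0.0469 in NC (SD, n = 3). That of GATA6 to HNF4A was 2.64 ± 0.221 in si_CSNK2B and 2.29 ± 0.470 in si_P300, against 1.10 ± 0.0657 in NC. The groups did not overlap in NC against either knockdown for any of these 3 ratios.

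**Figure D4:**
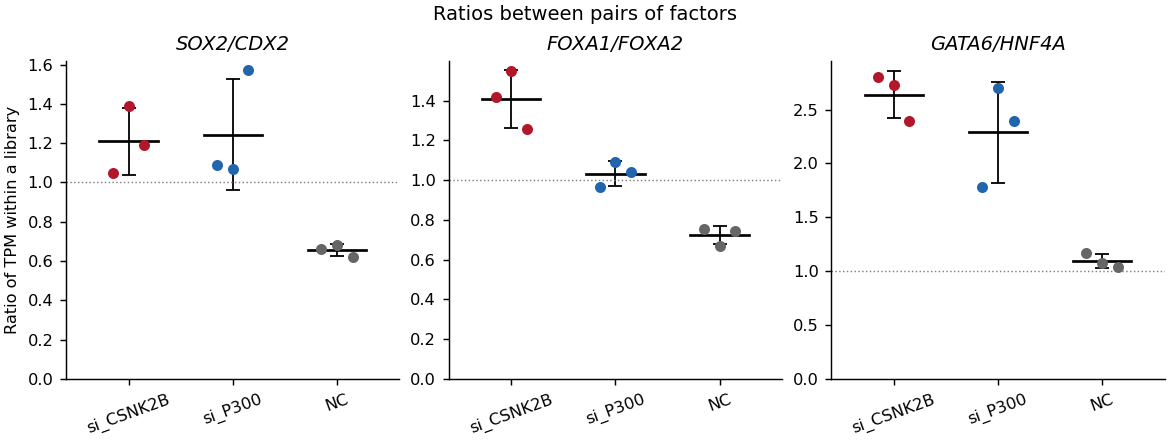
Ratio of the TPM of SOX2 to CDX2, FOXA1 to FOXA2 and GATA6 to HNF4A within each library, in si_CSNK2B, si_P300 and NC, with the mean and SD of 3 libraries and a dotted line at 1. SOX2 to CDX2 lies above 1 in all 6 knockdown libraries and at 0.620 to 0.680 in NC.

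The members' closest relatives showed whether whole families moved. Of 15 listed paralogs 12 had a row and 5 passed the filter, of which 2 rose (GATA4 and GATA5) and 2 fell (FOXA3 and EHF) in each comparison, with HNF4G not called in either, beside 34.0% (16.2% higher, 17.8% lower) and 28.3% (13.6% higher, 14.7% lower) of all tested genes. GATA4 had 74.6, 89.8 and 70.7 TPM in si_CSNK2B and 48.2, 64.5 and 74.3 TPM in si_P300, against 41.9, 37.9 and 41.0 TPM in NC, a level close to that of GATA6 in each group. GATA4 rose by 0.92 ± 0.17 on the log2 scale in si_CSNK2B and by 0.59 ± 0.17 in si_P300, and GATA5 by 0.85 ± 0.16 and 0.52 ± 0.16 (edgeR adjusted p = 0.00151, 0.0209, 0.00175 and 0.0295). Summed over GATA4, GATA5 and GATA6, TPM was 170 ± 14.8 in si_CSNK2B and 141 ± 24.7 in si_P300, against 85.8 ± 4.07 in NC. In si_P300 the calls of GATA4 and GATA5 were each lost in 5 of 19 alternatives (adjusted p up to 0.0911 and 0.108). These included leaving out NC replicate 1, 2 or 3 and si_P300 replicate 2 for both (edgeR adjusted p = 0.0552, 0.0911, 0.0619 and 0.0544 for GATA4, and 0.0733, 0.108, 0.0859 and 0.0979 for GATA5) and si_P300 replicate 3 for GATA4 (0.0903).

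FOXA3 was the most abundant FOXA gene, with 52.8, 49.3 and 45.3 TPM in si_CSNK2B and 54.0, 55.6 and 49.4 TPM in si_P300, against 87.1, 82.5 and 81.4 TPM in NC. FOXA3 fell by 0.81 ± 0.11 on the log2 scale in si_CSNK2B and by 0.72 ± 0.11 in si_P300 (edgeR adjusted p = 0.000224 and 0.000646). With FOXA1 higher and FOXA3 lower, the summed TPM of the 3 FOXA genes was 92.8 ± 4.47 in si_CSNK2B and 95.5 ± 2.07 in si_P300, against 123 ± 4.63 in NC. EHF, an epithelial ETS factor related to ELF3, stood at 2.98 ± 0.254 TPM in si_CSNK2B and 2.74 ± 0.548 TPM in si_P300, against 6.31 ± 1.03 TPM in NC. EHF fell by 1.12 ± 0.19 and by 1.25 ± 0.19 on the log2 scale (edgeR adjusted p = 0.000908 and 0.000611), while ELF3 did not pass. HNF4G, a paralog of HNF4A in the intestine, had 2.22 ± 0.390 TPM in si_CSNK2B, 2.28 ± 0.481 in si_P300 and 2.92 ± 0.507 in NC (log2 fold change -0.47 ± 0.20 and -0.42 ± 0.20, edgeR adjusted p = 0.0977 and 0.138). The SOX paralogs SOX1, SOX8 and SOX10 averaged 0.0133 TPM or less in every group.

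**Figure D5:**
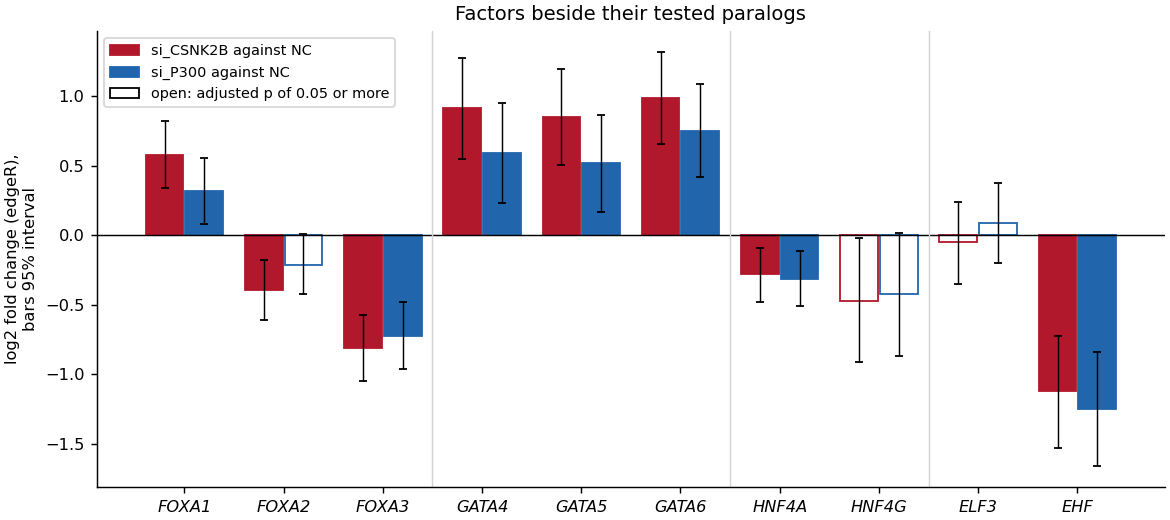
Log2 fold change (edgeR, bars from 0, whiskers are 95% intervals) of the FOXA, GATA, HNF4 and epithelial ETS genes that passed the filter, in si_CSNK2B against NC (left bar of each pair) and si_P300 against NC (right bar), with open bars for an adjusted p of 0.05 or more. GATA4, GATA5 and GATA6 rise together, FOXA1 rises while FOXA2 and FOXA3 lie below 0, and EHF falls while ELF3 stays near 0.

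Other factors of these lineages were read from fixed lists, with no test of the lists themselves. Of 9 tested factors of the foregut, lung and stomach 3 fell in si_CSNK2B and 4 in si_P300 and none rose, beside 17.8% and 14.7% of all tested genes called lower, with a list median of -0.25 and -0.45, beside 0.04 over all genes. ETV4 and ETV5, ETS factors downstream of fibroblast growth factor signalling in the lung bud, fell by 1.88 ± 0.19 and 1.23 ± 0.13 on the log2 scale in si_CSNK2B and by 1.42 ± 0.19 and 1.00 ± 0.13 in si_P300 (edgeR adjusted p of 3.45e-05 to 0.000283). GRHL2, an epithelial factor, fell by 0.49 ± 0.11 and 0.45 ± 0.11, and FOXP4 fell by 0.52 ± 0.11 in si_P300 and stood at -0.25 ± 0.11 in si_CSNK2B, where it did not pass. Among 9 tested liver and pancreas factors MNX1, a homeobox factor of the pancreas, fell by 1.26 ± 0.18 in si_CSNK2B and by 1.21 ± 0.18 in si_P300, and was the one factor of that list that fell in either.

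Among 11 tested intestinal factors 3 rose and 4 fell in si_CSNK2B, and 1 rose and 4 fell in si_P300, beside 16.2% and 17.8%, and 13.6% and 14.7%, of all tested genes called higher and lower. KLF5, a crypt factor, had 185 ± 28.7 TPM in si_CSNK2B and 197 ± 37.7 TPM in si_P300, against 364 ± 18.1 TPM in NC, and fell by 1.02 ± 0.14 and 0.96 ± 0.14 on the log2 scale (edgeR adjusted p = 0.000275 and 0.00056). KLF4, a factor of differentiated epithelium, fell by 1.35 ± 0.22 and 1.09 ± 0.22, TCF7L2, the Wnt effector, by 0.55 ± 0.13 and 0.44 ± 0.13, and PRDM1 by 0.83 ± 0.14 and 0.48 ± 0.14. MYB, a crypt progenitor factor, rose by 0.72 ± 0.21 in si_CSNK2B and by 1.13 ± 0.21 in si_P300. The other risers in si_CSNK2B, named after their values were seen, were HES1, the Notch effector (0.38 ± 0.11, edgeR adjusted p = 0.0204), and CREB3L3 (1.02 ± 0.27, edgeR adjusted p = 0.0136), which stood at 0.08 ± 0.11 and 0.76 ± 0.27 in si_P300 and did not pass there. HES1 failed on dropping NC replicate 2 or 3 or si_CSNK2B replicate 2 (edgeR adjusted p = 0.0994, 0.0778 and 0.0595, range 0.00432 to 0.0994), and CREB3L3 on dropping NC replicate 3 or si_CSNK2B replicate 1 (0.0619 and 0.0624, range 0.00388 to 0.0624). In si_P300 CREB3L3 passed in 7 of 19 alternatives, without si_CSNK2B replicate 1 among them (edgeR adjusted p = 0.0453, range 0.0323 to 0.21). In si_P300 the call of TCF7L2 held in 13 and that of PRDM1 in 10 of 19 alternatives (adjusted p of 0.00597 to 0.0791 and 0.0115 to 0.0991). Both failed on dropping NC replicate 1 or 3 or si_P300 replicate 2 or 3 (edgeR adjusted p = 0.0666, 0.0722, 0.0612 and 0.076 for TCF7L2, and 0.094, 0.08, 0.0509 and 0.0684 for PRDM1). MYB in si_CSNK2B was lost without NC replicate 2 or 3 or si_CSNK2B replicate 1 (0.0881, 0.0521 and 0.0875, within 0.00798 to 0.0881).

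Genes that CDX2 and HNF4A are known to drive in the intestine did not move one way. Of 29 listed targets 16 passed the filter, of which 5 rose and 1 fell in each comparison. Of all tested genes 34.0% were called in si_CSNK2B (16.2% higher, 17.8% lower) and 28.3% in si_P300 (13.6% higher, 14.7% lower). The list median was 0.19 in si_CSNK2B and 0.28 in si_P300 on the log2 scale, beside 0.04 over all genes in each. LGALS4, a galectin of the enterocyte, had 79.1, 48.7 and 35.6 TPM in si_CSNK2B and 49.7, 67.1 and 58.2 TPM in si_P300, against 205, 184 and 253 TPM in NC, and fell by 2.00 ± 0.26 and 1.93 ± 0.26 on the log2 scale (edgeR adjusted p = 0.000193 and 0.000355). VIL1, the microvillus protein villin, rose by 0.43 ± 0.12 and 0.53 ± 0.12, HEPH, an intestinal iron oxidase, by 0.85 ± 0.19 and 0.74 ± 0.19, and FABP1, a fatty acid binding protein, by 1.33 ± 0.32 and 1.00 ± 0.32. KRT20, a keratin of mature enterocytes, rose by 1.01 ± 0.32 and 1.40 ± 0.31, at 1.71 ± 0.394 TPM in si_CSNK2B and 2.3 ± 0.304 TPM in si_P300, against 0.823 ± 0.204 TPM in NC. FABP1 averaged 14.3 ± 4.85 TPM in si_CSNK2B and 11.6 ± 2.09 TPM in si_P300, against 5.55 ± 0.998 TPM in NC. Counts per NC library were low for both, at 20 to 30 for FABP1 and 10 to 17 for KRT20. The fifth riser was CEACAM6 in si_CSNK2B (0.59 ± 0.20) and ANPEP in si_P300 (0.95 ± 0.26), both named after their values were seen. CEACAM6 failed on dropping any 1 of NC replicates 1 to 3 (edgeR adjusted p = 0.091, 0.107 and 0.115) or si_CSNK2B replicate 1 or 3 (0.144 and 0.121, range 0.00767 to 0.144), and in si_P300 it passed without replicate 3 (0.0286, range 0.0286 to 0.27). ANPEP failed on dropping NC replicate 1 or 3 or si_P300 replicate 3 (0.0652, 0.0821 and 0.0766, range 0.00912 to 0.0821). CDH17, an intestinal cadherin, had 92.6 ± 8.86 TPM in si_CSNK2B, 80.4 ± 10.5 in si_P300 and 91.6 ± 4.47 in NC, and did not pass (edgeR adjusted p = 0.866 and 0.179). Without NC replicate 2 the calls of VIL1 in si_CSNK2B (edgeR adjusted p = 0.0585) and HEPH in si_P300 (0.0587) were lost, within 0.00253 to 0.0585 and 0.0047 to 0.0587. KRT20 in si_CSNK2B was lost without NC replicate 1, 2 or 3 or si_CSNK2B replicate 1 (0.123, 0.0678, 0.0517 and 0.115, within 0.0156 to 0.123), and FABP1 in si_P300 without NC replicate 1, 2 or 3 or si_P300 replicate 2 or 3 (0.106, 0.127, 0.0576, 0.0645 and 0.116, within 0.00696 to 0.127). In these bulk libraries, fewer cells of a kind and less RNA per cell cannot be told apart.

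The profile over the 9 libraries was also matched against 11068 other genes with a mean count of at least 50, by the root mean square difference of log2 CPM after centring each gene on its own mean. SOX2 was nearest to PLPP3 (0.101), SLC1A3 (0.138) and WDR81 (0.142), and GATA6 to GM2A (0.068) and TIMM21 (0.109). FOXA1 was nearest to MPC2 (0.077), ACAA1 (0.084) and NUDT16 (0.085), FOXA2 to TADA2A (0.052), RNF111 (0.056) and NCK1 (0.058), HNF4A to TM9SF3 (0.031) and EWSR1 (0.033), and SOX9 to NOP53 (0.066), SREBF2 (0.067) and FOXK2 (0.073). Among the 8 factors themselves the smallest differences were HNF4A with FOXA2 (0.111), HNF4A with SOX9 (0.178) and GATA6 with SOX2 (0.197). The largest was SOX2 with SOX9 (0.797). The root mean square about a gene's own mean was 0.150 for HNF4A, 0.166 for FOXA2, 0.309 for SOX9, 0.453 for GATA6 and 0.539 for SOX2. A small difference can thus come from little variation, and that of HNF4A with SOX9 exceeded the variation of HNF4A itself. The difference of GATA6 with SOX2 was well below the variation of either. These values are on the log2 scale and describe likeness over the same libraries.

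Per GENCODE 29 (GRCh38), CDX2 lies on chromosome 13 (27962137 to 27971139, minus strand), HNF4A on 20 (44355700 to 44434596, plus), FOXA1 on 14 (37589984 to 37596059, minus), FOXA2 on 20 (22581005 to 22585455, minus) and GATA6 on 18 (22169443 to 22202528, plus). SOX2 lies on 3 (181711924 to 181714436, plus), SOX9 on 17 (72121020 to 72126420, plus) and ELF3 on 1 (202007945 to 202017188, plus). SOX2 is inside SOX2-OT on the same strand and SOX9 is inside SOX9-AS1 on the opposite one. HNF4A, GATA6 and ELF3 each overlap antisense genes, FOXA1 overlaps TTC6, and FOXA2 overlaps AL121722.1. The strand setting of the counting is not given in the sources used here, so reads of HNF4A, GATA6, ELF3, FOXA1 and SOX9 cannot be told from those of their opposite-strand neighbours. SOX2 and FOXA2 overlap same-strand genes, whose reads a strand setting would not separate. The same holds for HNF4A with MIR3646 and for ELF3 with AL691482.3. CDX2 overlaps no other annotated gene.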

How the data were processed

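RNA was read as single-end 50 bp libraries on a BGISEQ instrument, per the labels. HISAT and Bowtie2 on GRCh38.p13 are named in the submitters' processing notes, without roles. The counter, the annotation and the strand setting are not given in the sources used here. The deposited read counts are expected counts, unscaled by the authors (24.7% to 39.4% whole per library). TPM values were deposited as scaled to a common total (1 value missing). FPKM values and normalized read counts, a signal scaled by the authors, were deposited too and not used.

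Counts were rounded and fitted in R 4.3.3 with edgeR 4.0.16 (filterByExpr at a minimum count of 10, TMM, 1 quasi-likelihood model of all 9 libraries, 13129 genes), with Benjamini-Hochberg adjustment over all tested genes and calls at an adjusted p under 0.05. SE is the log2 fold change over the square root of F. Alternatives used DESeq2 1.42.0, limma 3.58.1 on log2(TPM + 1 or 0.1), other factors and filters, a replicate block and fits that leave out 1 library each. The code was checked on simulated data. Where nothing names separate cultures, p-values measure the spread between these libraries. The smallest two-sided exact permutation p for 3 against 3 is 0.1. The limit that a count of 0 sets is 0.164 to 0.229 CPM (3 counts), which covers counting error only.

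The factors and lists were chosen with earlier results of these data known. Named genes were the 8 factors, the targeted genes, tested paralogs, in each list up to 4 called genes with the lowest p per comparison, the 3 nearest profiles per called factor, overlapping genes with a row and cell type markers by level. CDH17, CEACAM6, ANPEP, HES1, CREB3L3 and PGC were described after their values were seen. Some genes that this rule names are not reported here.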

Additional observations from a re-analysis of the deposited data

How the results depend on the processing

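SOX2, GATA6 and SOX9 passed in both comparisons with NC, and FOXA1 and FOXA2 in si_CSNK2B, under all 19 alternatives, with log2 fold changes of 0.94 to 1.14 and 0.80 to 1.28 (SOX2), 0.90 to 1.11 and 0.63 to 0.91 (GATA6), -0.71 to -0.48 and -0.71 to -0.52 (SOX9), 0.53 to 0.70 (FOXA1) and -0.43 to -0.27 (FOXA2). With library sizes alone the median of all genes was 0.162 in si_CSNK2B and 0.152 in si_P300, against 0.037 and 0.042, and 66.0% of calls were higher in each, against 47.6% and 48.1%. HNF4A was then at -0.16 and -0.20 and did not pass in either. Leaving out 1 library at a time gave 5 to 6 called factors in si_CSNK2B and 3 to 5 in si_P300, and 2928 to 5166 and 2191 to 3882 called genes, the fewest without NC replicate 3. The numbers of the replicates did not pair the libraries (correlations of -0.29 to 0.06 between same-numbered libraries), and with the replicate block 5 and 3 factors were called. DESeq2 called 8 genes between the knockdown groups, and edgeR 0. ELF3 in si_CSNK2B was 0.073 with library sizes alone and 0.01 on TPM under each pseudocount and filter, and -0.10 to 0.017 with a library left out. CDH17 in si_CSNK2B was 0.091 with library sizes alone and 0.012 on TPM under each setting, and -0.089 to 0.063 with a library left out, and PGC there was 0.038 with library sizes alone and -0.24 to 0.04 with a library left out. In si_P300 ELF3 ran from -0.079 to 0.19 and CDX2 from -0.011 to 0.30 with a library left out. Between the knockdown groups, SOX2 turned to 0.012 with the replicate block, 0.0029 on log2(TPM + 1) with or without the filter and 0.0039 with a pseudocount of 0.1, and SOX9 to -0.0048, -0.0048 and -0.0049 under these TPM settings. With a library left out, the same difference ran from -0.26 to 0.22 for SOX2, -0.087 to 0.072 for SOX9, -0.11 to 0.20 for CDX2, -0.0084 to 0.073 for HNF4A and -0.25 to 0.024 for ELF3. The cause of these changes was not tested. At 13.1 to 18.3 M counts, the fewest reads behind a factor were 324 to 438 per library, for FOXA2 in si_CSNK2B.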

Other observations

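Of the markers listed for the check of cell type, 4 of the stomach epithelium and 4 of the lung epithelium were tested. In the stomach list 1 rose and 1 fell in si_CSNK2B and 1 fell in si_P300, and in the lung list 1 rose in each. Over all tested genes, 16.2% were called higher and 17.8% lower in si_CSNK2B, and 13.6% and 14.7% in si_P300. TFF1, a trefoil peptide of the gastric surface, had 26.5, 27.5 and 32.9 TPM in si_CSNK2B and 36.1, 35.0 and 17.4 TPM in si_P300, against 101, 82.0 and 97.6 TPM in NC. It fell by 1.75 ± 0.23 and 1.73 ± 0.23 on the log2 scale (edgeR adjusted p = 0.000195 and 0.000288), and passed under all 19 alternatives in both. NAPSA, an aspartic protease of the lung alveolus and kidney, had 2.58, 4.34 and 6.10 TPM in si_CSNK2B and 3.59, 3.76 and 3.08 TPM in si_P300, against 1.19, 1.38 and 0.840 TPM in NC. It rose by 1.81 ± 0.34 and 1.51 ± 0.34 (edgeR adjusted p = 0.00178 and 0.00689), and passed under all 18 alternatives that tested it. CLDN18, a claudin of the stomach and lung, averaged 0.807 ± 0.188 TPM in si_CSNK2B and 0.473 ± 0.151 TPM in si_P300, against 0.390 ± 0.040 TPM in NC (SD, n = 3). It rose by 1.04 ± 0.34 in si_CSNK2B (edgeR adjusted p = 0.0323), a call that held in 8 of 16 alternatives and was lost without NC replicate 1, 2 or 3 (0.111, 0.0923 and 0.0727) or si_CSNK2B replicate 1 or 3 (0.0998 and 0.0822, range 0.0191 to 0.111). PGC, a gastric protease precursor, averaged 12.7 ± 2.19 TPM in si_CSNK2B and 9.58 ± 2.19 TPM in si_P300, against 13 ± 1.77 TPM in NC, and did not pass (edgeR adjusted p = 0.778 and 0.0994). The 8 stomach markers summed to 40 to 49 TPM in si_CSNK2B and 31.6 to 48.1 TPM in si_P300, against 95.5 to 116 TPM in NC, where TFF1 alone averaged 93.7 TPM, so the sum follows TFF1. The 6 lung epithelium markers with a row summed to 4.53 to 7.70 TPM in si_CSNK2B and 4.86 to 5.69 TPM in si_P300, against 2.28 to 2.49 TPM in NC. NAPSA averaged 4.34 TPM in si_CSNK2B and 3.48 TPM in si_P300, against 1.14 TPM in NC, so the sum largely follows NAPSA. It had 14 to 21 counts per NC library. The other 3 tested lung markers were not called in either comparison. Whether these levels bear on those of the factors was not tested.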
